A study of Homo sapiens with 3 samples.

Results

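The genes described here are the forkhead transcription factors FOXO1, FOXO3 and FOXO4 and the kinases that act on them through the phosphoinositide pathway. These kinases are the AKT kinases AKT1 and AKT2, the PI3K catalytic subunit PIK3CA with its regulatory subunit PIK3R1, and PDPK1, the gene of the kinase PDK1. Probes were assigned to these genes by symbol. The arrays carried 15 probes for these 8 genes, out of 58191 probes with a value on every array and 22435 named genes.

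The RNA was that of A549, a long-established human line grown from a lung adenocarcinoma, and 1 Agilent one-colour array was hybridized for each of 3 conditions at 48 h. Control cells received 0.1% DMSO as vehicle. The second culture received cordycepin, a nucleoside analog of adenosine, at 60 μg/mL. The third received cordyceps, named for the fungus from which cordycepin comes, at 100 μg/mL, and the labels do not describe how that material was prepared. The labels give all cultures the same DMEM, which held zinc sulfate at 16.7 μM, troglitazone at 10 μM and nicotinamide at 10 mM beside serum (10%) and penicillin-streptomycin (1%), whereas the methods of the study name serum and antibiotic alone. Whether the treated cultures also held DMSO was not stated.

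Growth factor receptors recruit class I PI3K, which makes the membrane lipid PIP3. PIP3 brings PDK1 and AKT together, PDK1 and mTORC2 phosphorylate AKT, and active AKT phosphorylates FOXO factors, which 14-3-3 proteins then hold in the cytoplasm. When AKT is inactive, or when JNK modifies them, FOXO factors enter the nucleus and bind genes of cell cycle arrest, cell death, stress defence and metabolism. This control works largely on proteins, and an expression array measures RNA only.

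There was 1 array per condition (n = 1), so every difference below sets 1 array against another, and neither a replicate error nor a p-value can be given. Both comparisons share the control array, and the treatments differ in dose, so their values are given side by side and were not compared with each other. In RNA from a whole culture, fewer cells of a type and less RNA per cell cannot be told apart. Signals are background-corrected brightness in arbitrary units, before scaling. Log2 ratios were taken after each array was divided by its own 75th percentile signal, which was 260.1 on the control array, 224 with cordycepin and 260.2 with cordyceps. A probe was called changed at 2-fold or more.

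Between 42.1% and 49.0% of probes were detected on an array, that is, well above background. The 5 epithelial markers examined and 4 genes characteristic of A549 cells (AKR1B10, AKR1C1, AKR1C3 and ALDH1A1) were detected on all 3 arrays. PTPRC and CD14 among 4 leukocyte markers and COL1A1 among 4 fibroblast markers were also detected on all arrays, CD3E, COL3A1, DCN and LUM on none, and none of 4 endothelial markers on all 3. On the cordyceps array 11.2% of the spots in 1 corner, beyond row 240 and column 82, had an outlying local background, compared with 0 such spots there on the other arrays. That corner held 10820 probes, and 1 of the 15 member probes lay in it. Without it, the share of probes called higher with cordyceps was 2.8% in place of 5.21%.

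FOXO factors bind the forkhead element GTAAACA, and the 300-base windows from 250 bases before to 50 bases after each RefSeq start site (GRCh38.p14) were searched for it on both strands as GTAAACA or TGTTTAC. It was found in 3.42% of 35116 windows and for 4.19% of 27305 genes. All 8 member genes matched a window, 16 in all, and the element lay in 1 window each of FOXO4 and PIK3CA. Of the 42 target genes listed below, 35 matched a window, and BCL2L11, MXI1 and TXNIP held the element (8.57% of the 35). The insulin response element CAAAACA (or TGTTTTG) was found in 4.92% of windows and in 0 of the 16 member windows. The matches in both members, in 2 targets that were called changed with a treatment and in PIK3IP1, an inhibitor of PI3K, are printed here with the element in capitals, 5′ to 3′ on the strand of the gene.
FOXO4, chrX:71095863-71095891, plus strand: cccggcgagtgGTAAACAgagacgtcagg
PIK3CA, chr3:179148197-179148225, plus strand: agttcgttgttTGTTTACacgatgtgagc
BCL2L11, chr2:111120680-111120708, plus strand: gagttactccgGTAAACAcgccagggacg
TXNIP, chr1:145996686-145996714, minus strand: tcgggctcctgGTAAACAaggaccgggca
PIK3IP1, chr22:31292455-31292483, minus strand: taaagagaggcTGTTTACcagaacagcat
In FOXO4 and PIK3IP1 the element lay just after the start site, at positions 24 and 17, and in PIK3CA, BCL2L11 and TXNIP before it. MXI1 and further listed genes that were not called held the element too and are not printed. A match describes letters in the window, and binding was not measured.

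No member probe was called with cordycepin (0 of 15), where 10.7% of 30164 probes were. With cordyceps 1 of 15 was called, a FOXO4 probe that was higher, where 8.41% of 29259 probes were called. By the brightest probe of each gene, 0 of 8 members were called in either comparison. With so few probes these counts are close to the shares over all probes. The median log2 ratio of the 8 brightest probes was -0.21 with cordycepin and -0.25 with cordyceps, beside -0.03 and -0.12 over all probes detected on both arrays compared. With cordycepin 6 of the 8 lay below 0 and with cordyceps 5 of 8. Of all probes detected on both arrays, 52.9% lay below 0 with cordycepin and 62.3% with cordyceps. Scaling to the array median, which shifted the median of all probes by -0.26 and 0.27, moved the cordyceps median of the members to 0.022. The cordyceps median over all probes detected on both arrays was then 0.15. Signs of small ratios below hold for the 75th percentile scaling.

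To set these values against measurement error, 2 spreads were used. The first used the 2 brightest probes of the same gene detected on all 3 arrays, over 2368 genes outside the corner. It gave a technical SD for a single probe's log2 ratio of 0.27 with cordycepin and 0.21 with cordyceps. FOXO4 probe 2, not detected in control, falls outside what this SD describes. The scanner's own error estimate is given with the ratios below where a member moved most. Of the 15 member probes, 6 lay beyond 1 technical SD with cordycepin and 7 with cordyceps. Beyond 2 technical SDs lay 4 probes with cordycepin (both FOXO4 probes, AKT2 probe 1 and PDPK1 probe 2) and 2 with cordyceps (FOXO4 probe 2 and the PIK3R1 probe). Moves of this size were common on these arrays. Among all probes detected on both arrays, 54.8% moved at least as far as AKT1 with cordycepin (-0.27, about 1 technical SD). For PDPK1 probe 2 with cordycepin (-0.56, just beyond 2 technical SDs) the share was 24.6%. With cordyceps 56.1% moved at least as far as FOXO4 probe 1 (-0.25) and 17.3% at least as far as PIK3R1 (-0.64). Neither spread covers the variation between cultures.

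**Figure D1:**
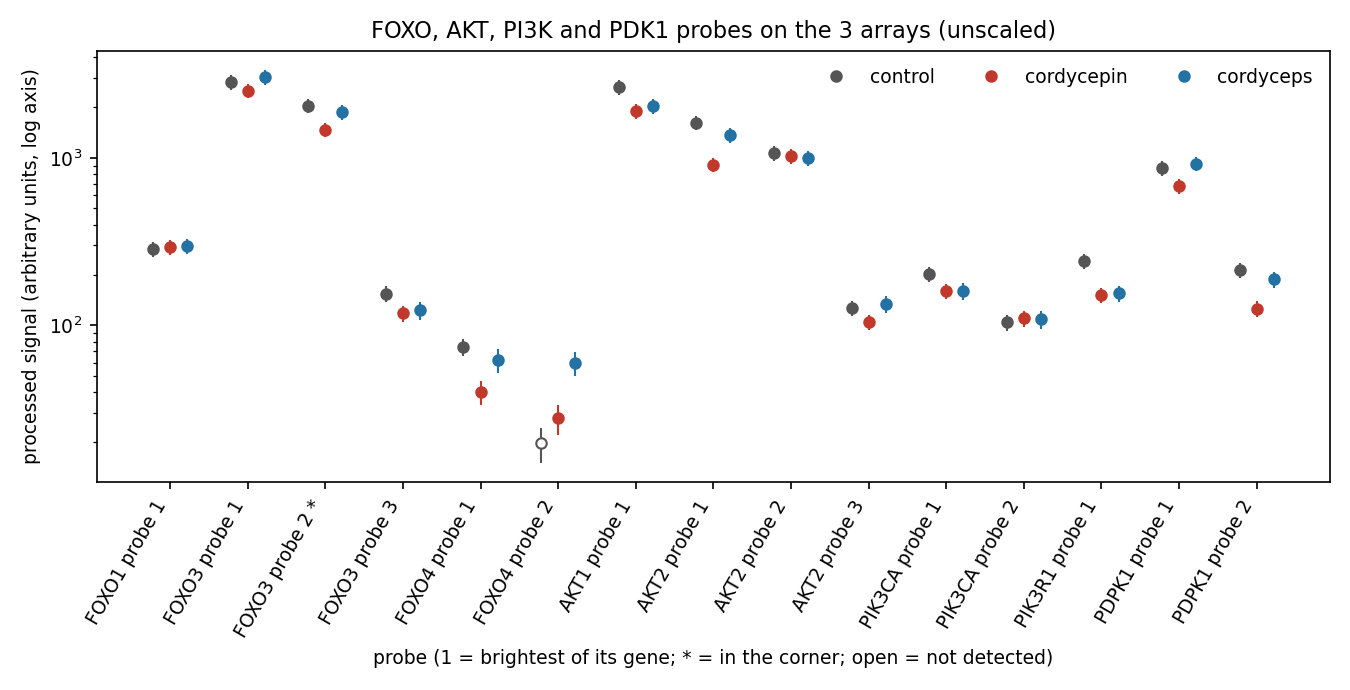
Processed signal (arbitrary units, log axis) of the 15 member probes on the control, cordycepin and cordyceps arrays, 1 point per array, with bars for the scanner's error estimate. Probe 1 is the brightest of its gene, an asterisk marks the probe in the corner, and the open point is FOXO4 probe 2 at 19.8 on the control array, where it was not detected.

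FOXO3, the factor whose protein the study followed, was measured by 3 probes. Probe 1, the brightest, had a signal of 2844 in control, 2518 with cordycepin and 3029 with cordyceps. The 3 arrays were close to each other, with log2 ratios of 0.04 with cordycepin and 0.09 with cordyceps, both smaller than the scanner error of 0.20. Probe 2 read 2052, 1476 and 1873 in the same order, for ratios of -0.26 and -0.13. It was highest in control and lies in the corner, so its cordyceps value stands on the disturbed area. Probe 3 was dim, at 155 in control, 118 with cordycepin and 123 with cordyceps, for ratios of -0.18 and -0.33. The FOXO3 probes thus spanned 0.30 on the log2 scale with cordycepin and 0.42 with cordyceps, and the probe with the highest signal and the other probes lay on opposite sides of 0 in both comparisons, although the probe 1 ratio with cordycepin ran from -0.23 to 0.11 over the processing settings. Whether the probes separate FOXO3 from its near-identical copy FOXO3B was not tested.

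FOXO1, a FOXO factor best known from insulin signalling, had 1 probe, with a signal of 284 in control, 293 with cordycepin and 299 with cordyceps. After scaling its log2 ratio was 0.26 with cordycepin and 0.07 with cordyceps, against a scanner error of 0.21. Among probes detected on both arrays, 55.9% moved at least as far as FOXO1 with cordycepin and 86.7% with cordyceps.

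FOXO4, the third factor, was the dimmest member, and its 2 probes moved apart. Probe 1 read 74.0 in control, 40.0 with cordycepin and 62.3 with cordyceps. The cordycepin array was the low one, 1.59-fold below control (log2 ratio -0.67, scanner error 0.29), while the cordyceps ratio was -0.25. Probe 2 read 19.8 in control, where it was not well above background, 27.9 with cordycepin and 59.4 with cordyceps. Its control value being a bound, it was at least 1.64-fold higher with cordycepin and at least 3.01-fold higher with cordyceps. The second value made it the only member probe past 2-fold. It lies outside the corner but near its edge, at row 359 and column 77. Around it on the cordyceps array 119 detected neighbours had a median log2 ratio of -0.19, and 128 undetected neighbours had a median signal of 7.82, compared with 4.16 in control. With normexp background correction, or when detection on both arrays was required, it was not called. The FOXO4 probes differed from each other by 1.38 on the log2 scale with cordycepin and 1.84 with cordyceps, the widest span of any member, so no direction is given for this gene.

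**Figure D2:**
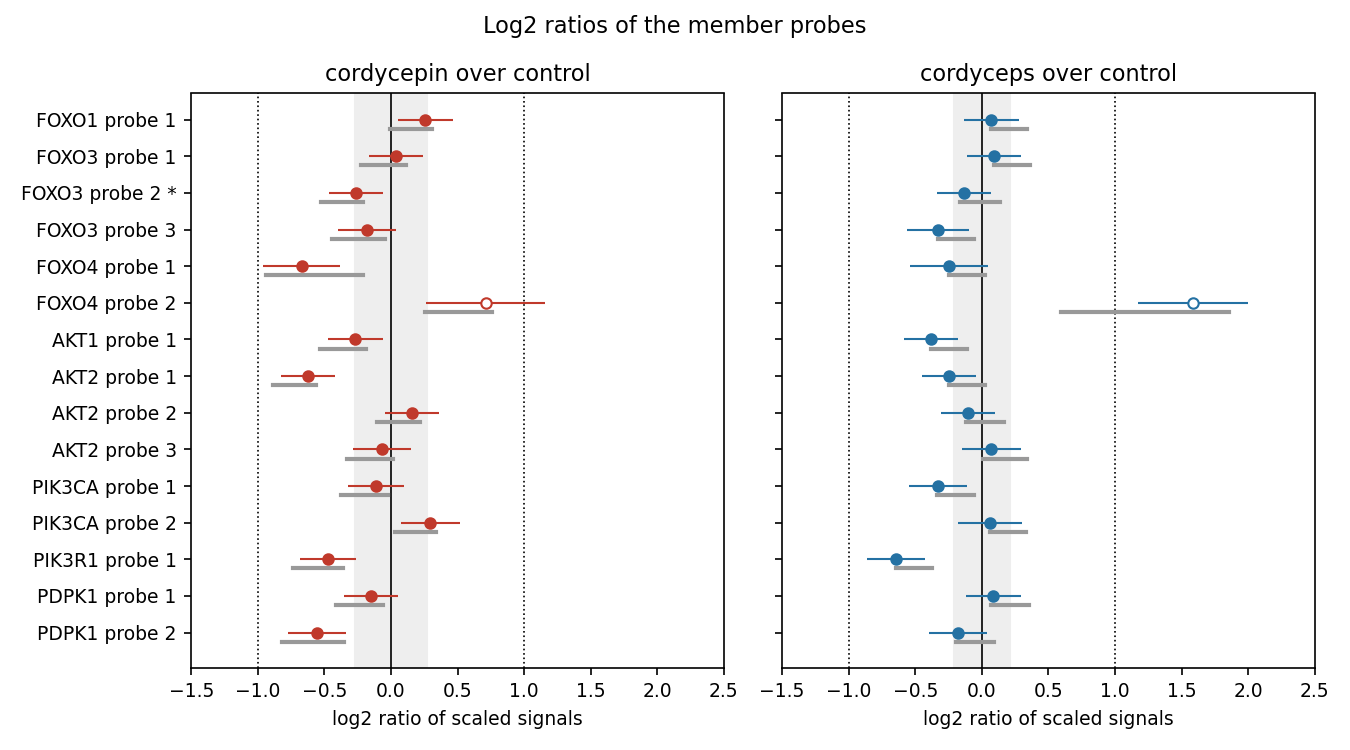
Log2 ratios of scaled signals for each member probe, cordycepin over control on the left and cordyceps over control on the right, with coloured bars for the scanner's error, grey bars for the range over processing settings, a shaded band for 1 technical SD and dotted lines at 2-fold. Open points are bounds, and FOXO4 probe 2 with cordyceps, at 1.59, is the only point past a dotted line.

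AKT1, the AKT kinase found in most tissues, had 1 probe. Its signal was 2651 in control, 1900.0 with cordycepin and 2038 with cordyceps. Control was the highest array, and the log2 ratios were -0.27 with cordycepin and -0.38 with cordyceps, near or beyond 1 technical SD but far from 2-fold. Over the processing settings the cordycepin ratio ran from -0.53 to -0.18 and the cordyceps ratio from -0.38 to -0.11.

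AKT2, the AKT kinase most tied to insulin-driven glucose uptake, had 3 probes that differed. Probe 1 read 1625 in control, 911 with cordycepin and 1369 with cordyceps. It was 1.54-fold lower with cordycepin (log2 ratio -0.62, scanner error 0.20), a size reached by 20.5% of probes detected on both arrays, and had a ratio of -0.25 with cordyceps. Probe 2 read 1066, 1025 and 994, for ratios of 0.16 and -0.10. Probe 3 read 127, 105 and 134, for ratios of -0.07 and 0.07. The lower value with cordycepin was thus seen with the brightest AKT2 probe and not with the others, which lay within 1 technical SD of 0.

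PIK3CA encodes the catalytic subunit p110 alpha, and its 2 probes were dim. Probe 1 had a signal of 202 in control, 161 with cordycepin and 160.3 with cordyceps. Probe 2 had 104, 110.2 and 109. The first gave log2 ratios of -0.11 and -0.33 and the second 0.30 and 0.06, so under this scaling the probes lay on either side of 0 in both comparisons. Whether they separate PIK3CA from its pseudogene copy was not tested.

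PIK3R1, which encodes the regulatory subunit p85 alpha that binds and stabilizes p110, showed the lowest ratio of the members with cordyceps. Its 1 probe read 243 in control, 151 with cordycepin and 155 with cordyceps. Both treated arrays lay below control, by 1.39-fold with cordycepin (log2 ratio -0.47, scanner error 0.21) and by 1.56-fold with cordyceps (-0.64, error 0.22). Its ratio stayed below 0 in every setting tried, from -0.74 to -0.36 with cordycepin and from -0.65 to -0.37 with cordyceps. As the control array is shared, the similar values are not independent, and 17.3% of probes moved at least as far with cordyceps.

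PDPK1 encodes PDK1, the kinase that phosphorylates AKT in its activation loop. Probe 1 read 870.5 in control, 676 with cordycepin and 925 with cordyceps, for log2 ratios of -0.15 and 0.09. Probe 2 read 214, 125 and 188, and was 1.47-fold lower with cordycepin (ratio -0.56, scanner error 0.22) with a ratio of -0.18 with cordyceps. The cordycepin array was the lowest for both probes, though they differed by 0.41 on the log2 scale. Whether they separate PDPK1 from its copy PDPK2P was not tested.

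The other genes of the pathway were taken from 14 lists of upstream, downstream and partner genes, each gene standing by its brightest probe. Of 113 such genes on the arrays, 106 were detected on at least 1 of the arrays compared for cordycepin, and 5 were called higher and 6 lower (10.4%). Of all 15917 named genes detected there, 5.95% were higher and 3.57% lower, 9.52% in all. For cordyceps 105 were detected, and 7 were called higher and 7 lower (13.3%), and of 15602 named genes 4.19% were higher and 3.15% lower, 7.35% in all. Without probes in the corner, at the same scaling, the shares were 7.69% with cordycepin, beside 9.61% of all genes, and 11% with cordyceps, beside 5.82%. The median log2 ratio of the pathway genes was -0.0044 with cordycepin, beside -0.05 over all named genes, and -0.15 with cordyceps, beside -0.11.

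Upstream of PI3K no gene was called by its brightest probe. Of 6 detected receptors and adaptors, 5 lay below 0 with cordycepin and 4 with cordyceps, with medians of -0.33 and -0.27. Over all probes detected on both arrays the shares below 0 were 52.9% and 62.3%. IGF1R, the receptor of insulin-like growth factors, had the largest difference in this list, with signals of 8503 in control, 5927 with cordycepin and 4793 with cordyceps (log2 ratios -0.31 and -0.83). Of the other class I PI3K subunits 3 of 5 were detected and 0 were called. PIK3CD, the catalytic subunit best known from leukocytes, had the largest difference, from 216 in control to 231 and 328 (ratios 0.31 and 0.60).

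The lipid phosphatases and other brakes of the pathway held the largest rise with cordycepin among the listed genes. INPP5D encodes SHIP1, which removes the 5-phosphate of PIP3 and is known mainly from blood cells. Its signal was 167 in control, 1175 with cordycepin and 66.5 with cordyceps, so it was 8.18-fold higher with cordycepin and 2.51-fold lower with cordyceps. The cordyceps call ended with normexp background correction (log2 ratio -0.77). Of the 4 leukocyte markers, CD14 read 3387 in control, 1559 with cordycepin and 2183 with cordyceps. PTPRC had log2 ratios of -0.26 and -0.45 by its brightest probe (99.5, 71.8 and 72.9 units) and 0.62 and 0.21 by its other detected probe (36.3, 48.1 and 42.0 units). The remaining 2 were not detected on any array. The summed scaled level of the 4, most of it CD14, was 13.5, 7.35 and 8.77, and the part of such cells in the INPP5D values was not tested.

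PIK3IP1, which binds and inhibits the catalytic subunit, was not detected in control (3.99) or with cordyceps (7.27). It read 69.7 with cordycepin, at least 4.34-fold higher. TRIB3, a pseudokinase known to bind AKT and a gene of the stress response, had 17123, 15493 and 75948 units, a 4.43-fold higher value with cordyceps. Both the PIK3IP1 and the TRIB3 probe lie in the corner, and the part of the disturbance in the TRIB3 value was not tested.

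Among SGK and mTORC2 genes, SGK3, a kinase that shares targets with AKT, read 159 in control, 180.3 with cordycepin and 459 with cordyceps. It was 2.88-fold higher with cordyceps. MAPKAP1, which encodes the mTORC2 subunit SIN1, was 2.14-fold higher with cordycepin by its brightest probe (185 to 341), while its other probes had log2 ratios of -0.59 and 0.15. Another MAPKAP1 probe was slightly brighter in control (188). As the probes disagree and the call ended with median scaling (0.83) or no scaling (0.88), no direction is given for this gene. None of 10 further AKT substrates was called. TSC2, the brake on mTORC1, was the farthest from 0 among them, with 497, 252 and 519 units (ratios -0.77 and 0.06).

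The 14-3-3 genes, whose proteins keep phosphorylated FOXO in the cytoplasm, were all detected, and 0 of 7 were called. SFN, the epithelial 14-3-3 sigma, had signals of 14128, 17968 and 9590 (log2 ratios 0.56 and -0.56), from a probe in the corner. Of 19 FOXO regulators on the array, CREBBP, an acetyltransferase that acts with FOXO, was 2.52-fold lower with cordycepin by a corner probe (707 to 242). SKP2, which marks FOXO1 for degradation, was 2.40-fold lower with cordyceps (118 in control, 148 with cordycepin, 49.3 with cordyceps), a call that ended with median scaling (-0.99) and normexp (-0.63). MAPK8, the gene of the kinase JNK1, had 81.8, 76.8 and 93.3 units and was not called (ratios 0.12 and 0.19).

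**Figure D3:**
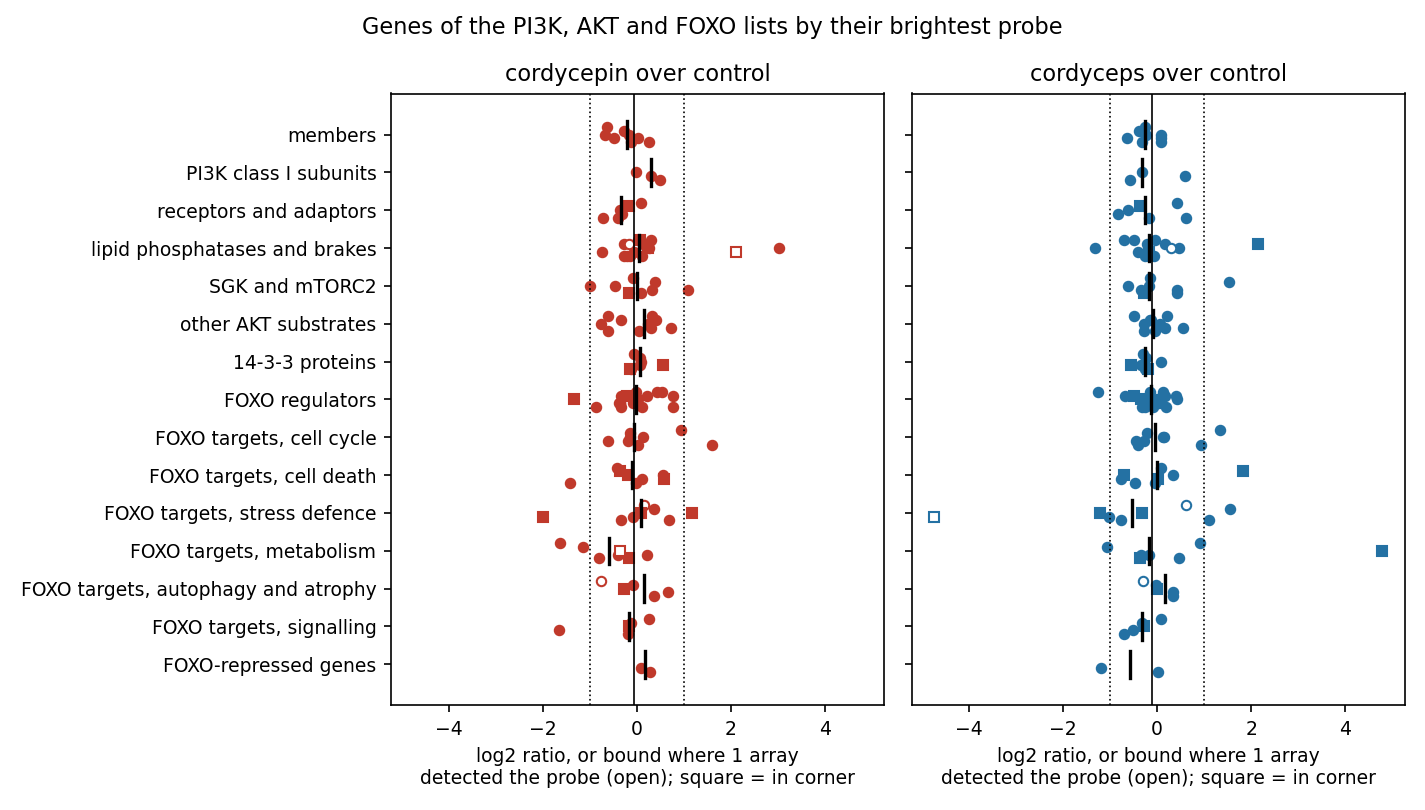
Log2 ratio of each detected gene of the members and pathway lists by its brightest probe, cordycepin over control on the left and cordyceps over control on the right; squares lie in the corner, open symbols are bounds, black ticks are list medians, the vertical line is the median of all named genes and dotted lines mark 2-fold. The members lie between the dotted lines, while INPP5D (3.03) with cordycepin and PCK1 (4.79) with cordyceps lie farthest above them.

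Of 42 listed FOXO targets, 39 were detected in each comparison. With cordycepin 2 were called higher and 5 lower (17.9%), beside 9.52% of all genes, and with cordyceps 5 were higher and 4 lower (23.1%), beside 7.35%. The calls ran in both directions, and the median log2 ratios were -0.14 and -0.10, near the -0.05 and -0.11 of all named genes. Without the corner, at the same scaling, the shares were 16.7% and 20.0% of 30 genes, beside 9.61% and 5.82%. The list was drawn up with results of these arrays known, so its share is a description.

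Of 8 cell cycle targets, 1 was called higher with each treatment and 0 lower. CDKN1A, the CDK inhibitor p21, read 142 in control, 370.5 with cordycepin and 269 with cordyceps. It was 3.03-fold higher with cordycepin and, below the threshold under this scaling, 1.90-fold with cordyceps. Its cordyceps ratio (log2 0.92) lay nearer to 2-fold than the 0.27 by which median scaling raised cordyceps ratios. GADD45A, a growth arrest and DNA damage gene, read 1868, 3096 and 4733, 1.92-fold above control with cordycepin, short of a call, and 2.53-fold higher with cordyceps. Both genes are also known targets of p53. Among FOXO-repressed genes, FOXM1, a driver of mitotic genes, read 663, 606 and 291, and was 2.28-fold lower with cordyceps, a call that ended with median scaling (-0.92).

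Cell death targets were not of one direction. BCL2L11, which encodes the BH3-only protein BIM and holds the forkhead element shown above, was 2.67-fold lower with cordycepin by its brightest probe (2939 in control, 948 with cordycepin, 2134 with cordyceps). Its other probes had log2 ratios of -0.64 and 0.64 with cordycepin, so the gene's probes disagree. TNFSF10, the gene of the death ligand TRAIL, was 3.53-fold higher with cordyceps by a probe in the corner (117 to 412) and lower by a probe outside it, with a log2 ratio of -1.20 (205 to 89.1). The corner probe is the brightest over the 3 arrays only through its cordyceps value, the other being brighter in control and with cordycepin, so no direction is given for this gene. BAX, the pore-forming protein the study followed, read 11900, 11122 and 6993 by its brightest probe and was not called (ratios 0.12 and -0.77). Its other probe, with 219, 281 and 185 units, had ratios of 0.57 and -0.24 and was not called.

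Stress defence targets held the highest share of calls with cordyceps, 5 of 8. SOD2, the mitochondrial superoxide dismutase, read 14686 in control, 20558 with cordycepin and 31408 with cordyceps, 2.14-fold higher with cordyceps. SESN2, a sestrin induced by stress, read 93.8, 105 and 275, 2.93-fold higher. CAT, catalase, read 2392, 1955 and 1168, 2.05-fold lower. These 3 probes lie outside the corner, but the call of CAT (log2 ratio -1.03) ended in 6 of 9 other settings, such as -0.92 with the corner left out before scaling and -0.76 with median scaling. SESN1, a sestrin also known as a p53 target, read 134 in control, 262 with cordycepin and 58.2 with cordyceps, from a corner probe. Its calls, higher with cordycepin and lower with cordyceps, both ended with median scaling (log2 ratios 0.91 and -0.94) and with normexp (0.82 and -0.67). TXNIP, which inhibits thioredoxin and holds the forkhead element, read 924, 200.01 and 11.1. It was 3.98-fold lower with cordycepin. Not being detected with cordyceps, it was at least 26.8-fold lower there (log2 bound -4.745, and -3.70 with normexp). Its probe also lies in the corner.

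Metabolic targets included 2 genes lower with cordycepin. PDK4, which switches off pyruvate dehydrogenase, read 17562 in control, 6870.1 with cordycepin and 8365 with cordyceps, 2.20-fold lower and 2.10-fold lower. The cordyceps call (log2 ratio -1.07) ended in 6 of 9 other settings, with -0.96 when the corner was left out before scaling and -0.80 with median scaling, and the cordycepin call ended with quantile normalization (-0.99). IGFBP1, a binding protein of insulin-like growth factors, read 11287, 3170 and 21396. It was 3.07-fold lower with cordycepin and 1.90-fold higher with cordyceps, the second below the threshold under this scaling. That second ratio (log2 0.92) lay nearer to 2-fold than the 0.27 by which median scaling raised cordyceps ratios. PCK1, the first committed enzyme of gluconeogenesis, read 32.6, 22.1 and 902, 27.7-fold higher with cordyceps by a corner probe (log2 ratio 4.79), and the part of the disturbance was not tested. Of the remaining targets, ERBB3, a receptor that feeds PI3K, was 3.13-fold lower with cordycepin (2167 to 597), and its other probes, 1 of them detected in control alone, had ratios of -0.82 and -0.51. None of 5 detected autophagy and atrophy targets was called. Of those detected on all 3 arrays, MAP1LC3B, the autophagosome protein LC3B, lay farthest from 0, at 0.66 with cordycepin and 0.34 with cordyceps, while its other probe had -0.26 and 0.79. ATG14, which acts early in autophagy, was detected in control alone, with 42.7 units beside 18.8 with cordycepin and 33.2 with cordyceps, and its bounds were -0.75 and -0.31.

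Genes with a pattern like that of the FOXO factors were sought by distance over the 2 log2 ratios, among 11248 genes detected on all arrays outside the corner. AKAP8L, ABCD3 and EFEMP2 lay nearest to FOXO3, and PPM1F, SPIRE2 and CAPRIN2 nearest to FOXO1. Within a distance of 0.1 lay 309 genes for FOXO3 and 207 for FOXO1, so 3 arrays do not single these genes out.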

How the data were processed

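The authors deposited Agilent Feature Extraction 11.5.1.1 scanner output for each of 3 arrays, with processed intensity values that were background-subtracted within the array and not scaled between arrays, and a value table of the same arrays. The intensity values of the deposited table were the mean processed signal of a probe, within a relative tolerance of 0.001 for 99.9% of probes on each array. They are neither scaled nor logged, with medians of 20.3, 21.1 and 16.9 for control, cordycepin and cordyceps. The methods name GeneSpring with no further setting, and name Cy3 and Cy5, whereas the files hold 1 Cy3 channel per array. All arrays share 1 slide and 1 scan date, which therefore form no batch.

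Control spots and outlier spots (63 to 106 per array) were left out, 0 spots were saturated, and spots of a probe were averaged. From the log2 processed signal the 75th percentile of that array's non-control probes was subtracted. Detection required 50% or more of a probe's spots to stand well above background, which held for 28494 probes in control, 27666 with cordycepin and 24505 with cordyceps. A call needed 2-fold, measured as a ratio if detected on both arrays and as a bound if on 1. In a bound the undetected array stands at the higher of its own signal and the lowest detected signal (18.6, 21.8 and 34.5). Precision is limited by having 1 array per condition.

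Accessions of the array design gave RefSeq symbols for 31097 probes. No probe sequence was used here. Genes in the text are the members, BAX, MAPK8 and SFN, and from each list the genes called at 2-fold in either comparison or, where none was, the one detected on all arrays and farthest from 0; markers and the genes nearest to FOXO3 and FOXO1 are named besides. A few genes of the lists are counted but not reported by name here. CSNK1A1 was listed and had no probe by symbol. Members and lists were chosen with earlier results of these data known. Alternatives were other scalings, normexp on the median spot signal (offset 50, since no mean spot signal was given), detection rules, outlier spots kept, the value table, local block medians, the corner left out, other folds and the median over probes. In simulated data 200 of 200 probes changed 4-fold were recovered and 0 others called among 58191. As the planted change lay beyond the 2-fold threshold, this checks the calling steps alone. It does not measure how many changes are missed or falsely called on these arrays. Normexp ran in limma 3.58.1 under R 4.3.3, and the rest in pandas 2.3.3, scipy 1.17.1 and numpy 2.4.6 under Python 3.11.15.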

Additional observations from a re-analysis of the deposited data

Results flagged for a closer look

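INPP5D, which encodes the PIP3 phosphatase SHIP1, was called in opposite directions by the 2 treatments, with a log2 ratio of 3.03 for cordycepin over control and -1.33 for cordyceps over control. SESN1 did the same, at 1.18 with cordycepin and -1.21 with cordyceps. Its probe lies in the corner, and both calls ended with median scaling (0.91 and -0.94) and with normexp (0.82 and -0.67). The INPP5D call with cordyceps ended with normexp (-0.77). The difference between the treatments was not tested, since each rests on 1 array, the doses differ and both are set against the same control array.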

How the results depend on the processing

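Of 268 member probe values recomputed over 9 alternatives, 250 moved by under 1 technical SD and 18 by more, 15 of them under median scaling and 3 under normexp, and 0 called values reversed their sign. Of 30 probe and comparison pairs, 21 stayed on one side of 0. Median scaling shifted the median of all probes by -0.26 with cordycepin and 0.27 with cordyceps, and no scaling by -0.21 with cordycepin. No paired analysis was possible because each condition had 1 array, and for the same reason no replicate could be left out.

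The median of the members with cordyceps went from -0.25 to 0.022 under median scaling, beside -0.12 and 0.15 over all probes detected on both arrays. The 1 member probe called higher with cordyceps became 0 with normexp and 0 with detection on both arrays. At 1.5-fold, member probes called were 1 higher and 2 lower with cordycepin, and 1 higher and 1 lower with cordyceps.

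For pathway genes with cordycepin, the 5 higher became 3 with median scaling, 3 with no scaling, 3 without the corner, 12 at 1.5-fold and 3 at 3-fold, and the 6 lower became 11 with median scaling, 15 at 1.5-fold and 3 at 3-fold. With cordyceps the 7 higher became 11 at 1.5-fold and 3 at 3-fold. The 7 lower became 2 with median scaling, 2 with normexp, 4 with the corner left out before scaling, 16 at 1.5-fold and 1 at 3-fold. At the same scaling, the brightest probes outside the corner gave 4 higher and 6 lower pathway genes with cordyceps.

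For FOXO targets with cordycepin, the 2 higher became 1 with median scaling, no scaling, normexp, the corner left out or 3-fold, and 6 at 1.5-fold. The 5 lower became 8 at 1.5-fold, 3 at 3-fold and 3 with the median over probes. With cordyceps the 5 higher became 2 at 3-fold. The 4 lower became 1 with median scaling, normexp, the corner left out before scaling or 3-fold, and 8 at 1.5-fold. They became 2 with the percentile over detected probes, quantile normalization or block medians. At the same scaling, the brightest probes outside the corner gave 3 higher and 3 lower targets with cordyceps. Standing each gene by the probe brightest on the control array, an alternative chosen after seeing the data, gave 4 higher and 6 lower pathway genes with cordycepin and 6 and 8 with cordyceps, and for FOXO targets 2 and 5, and 4 and 5. The cause of these shifts was not tested. Probes near background, such as FOXO4 probe 2, are limited by their signal.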

Other observations

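IRS1, the main insulin receptor substrate, was not called by its brightest probe (log2 ratios -0.35 with cordycepin and -0.63 with cordyceps). Its second probe, chosen for mention after its values were seen, read 662 in control, 214 with cordycepin and 345 with cordyceps, 2.67-fold lower with cordycepin. GRB10, an adaptor that restrains the insulin receptor, was likewise named after its values were seen. Its brightest probe lay at -0.72 with cordycepin and 0.61 with cordyceps. Its other probe, with 1670, 2349 and 2417 units, lay at 0.71 and 0.53, so the probes disagree with cordycepin. EPCAM, an epithelial surface marker, read 1066, 323 and 742, for log2 ratios of -1.51 with cordycepin and -0.52 with cordyceps. The other epithelial markers were not called by their brightest probes. With cordycepin these gave 0.62 for KRT8, 0.35 for KRT18, 0.07 for CDH1 and -0.47 for KRT7. Further KRT8 probes had 1.03, a call, and 0.43 with cordycepin. With cordyceps the brightest KRT8 probe had -0.71.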
